A study of Mus musculus with 28 samples.

Results

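The RNA levels of 10 genes of the Notch pathway were followed in mouse colon organoids, cultures of colon epithelium that grow as closed structures in a gel. The genes were taken by name from the deposited count table: the ligands *Dll1*, *Dll4* and *Jag1*, the receptors *Notch1* and *Notch2*, the glycosyltransferases *Lfng* and *Mfng*, the DNA-binding factor *Rbpj*, and *Hes1* and *Hes6* of the *Hes* family. All 10 were found among the 13519 genes of the table, and no filter on low counts was applied before testing.

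The organoids had 4 genotypes on a C57BL/6N background. AC organoids were VillinCreERT2::APCflox/flox, PAC organoids carried Trp53LSL-R172H/+ in addition, BAC organoids carried BraffloxV600E/+ in addition, and BPAC organoids carried both added alleles. Every group, controls included, therefore held floxed *Apc* and a Cre recombinase driven by the epithelial Villin promoter and switched on by 4-hydroxytamoxifen (4-HT), and no organoids without floxed *Apc* were among the samples. Each culture was given 4-HT at 3.5 µM for 24 hours or ethanol (EtOH) as solvent control, and RNA was taken 3 days later. AC came from 1 donor mouse and PAC, BAC and BPAC from 2 donor mice each, and each donor gave 2 duplicate cultures, which the study describes as separate passages. That makes 14 cultures and 28 libraries. The age of the mice was not given in the sources used here. The comparisons asked how the 10 genes changed with 4-HT in each genotype, and whether the change differed with the *Braf* or the *Trp53* allele.

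Notch receptors are bound by Delta-like and Jagged ligands on neighbouring cells and are then cut by ADAM proteases and by gamma-secretase, and the freed intracellular part joins RBPJ in the nucleus to switch on targets such as *Hes1*. Fringe enzymes, encoded by *Lfng* and *Mfng* among others, add sugars to the receptor and alter its response to the different ligands. In the intestinal epithelium, cells that receive the signal stay stem-like or become absorptive, whereas cells that present Delta-like ligands and express *Atoh1* become secretory.

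Upstream sequences of 3 members that rose with 4-HT are shown with the short motifs of Notch pathway proteins that they hold. They come from a set of upstream windows from RefSeq, build GRCm38.p6. The set used here held windows for 8 of the 10 members and none for *Hes1* and *Mfng*. The 250 bases before each start were searched on both strands for TGGGAA, the core bound by RBPJ, for CACNAG, the N-box bound by HES proteins, and for CTTTGA, a core bound by TCF factors. Capitals mark a match or its reverse complement, and each sequence runs 5′ to 3′ on the strand of its gene.
*Lfng*, chr5:140607091-140607340, plus strand: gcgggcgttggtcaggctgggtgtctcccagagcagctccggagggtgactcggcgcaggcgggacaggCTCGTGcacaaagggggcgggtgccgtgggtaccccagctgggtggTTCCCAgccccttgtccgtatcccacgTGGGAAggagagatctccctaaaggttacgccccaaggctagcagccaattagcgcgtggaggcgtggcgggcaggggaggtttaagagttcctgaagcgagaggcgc
*Dll4*, chr2:119325534-119325783, plus strand: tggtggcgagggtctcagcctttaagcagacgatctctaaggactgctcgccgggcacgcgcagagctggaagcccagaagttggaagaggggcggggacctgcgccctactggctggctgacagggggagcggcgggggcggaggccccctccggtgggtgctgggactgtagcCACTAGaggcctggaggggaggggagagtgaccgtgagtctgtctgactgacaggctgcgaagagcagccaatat
*Hes6*, one of 2 listed starts, chr1:91413223-91413472, minus strand: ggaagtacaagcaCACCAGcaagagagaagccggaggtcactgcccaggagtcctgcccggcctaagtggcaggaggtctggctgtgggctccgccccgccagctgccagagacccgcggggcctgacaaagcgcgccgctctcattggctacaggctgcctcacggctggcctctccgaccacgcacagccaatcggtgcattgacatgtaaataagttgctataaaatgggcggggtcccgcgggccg
The *Lfng* sequence held TGGGAA on the minus strand at 135 to 130 and on the plus strand at 108 to 103 bases before the start, and CACNAG at 181 to 176 bases before it. Of these bases 21 lie in an annotated *Lfng* exon. The *Dll4* and *Hes6* sequences held CACNAG alone, at 75 to 70 and at 237 to 232 bases before the start. This *Hes6* window lies inside the annotated gene, and the window before the other *Hes6* start, at the annotated end of the gene, held none of the 3 motifs. *Rbpj* was the other member with TGGGAA in a window, and CTTTGA was in no member's window. Among all 32851 windows of this length 21.6% held TGGGAA, 36.7% held CACNAG and 13.8% held CTTTGA. A match describes letters in a window, not a measured binding site.

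Library totals ran from 20577276 to 40068718 counts, and levels are given in CPM, read counts divided by the TMM-scaled library size and brought to one common total. All 10 listed epithelial markers were in the table, with a summed level of 17181 to 30833 CPM. Of the markers of other cells, 3 of 8 endothelial, 1 of 10 fibroblast and pericyte and 3 of 8 immune genes were in it, and the other listed genes were not. Their summed level in EtOH and in 4-HT libraries was 3.37 to 9.05 and 2.62 to 5.60 CPM for the endothelial genes, 3.38 to 13.7 and 0.238 to 3.83 CPM for *Pdgfrb*, the 1 fibroblast and pericyte gene, and 1.85 to 4.10 and 0.779 to 3.52 CPM for the immune genes. *Trp53*, which the LSL cassette keeps silent on 1 allele before recombination, stood in EtOH libraries at 51.9 to 66.0 CPM in PAC and 51.4 to 60.1 CPM in BPAC, against 108 to 115 CPM in AC and 97.9 to 122 CPM in BAC organoids. Gene-level counts of *Apc* and *Braf* include exons outside the recombined part and check nothing. The 4-HT libraries of duplicate 1 of both PAC donors stood apart: they held *Xist* (25.2 and 22.0 CPM) together with Y-linked genes (summed 55.0 and 53.5 CPM), whereas none of the other 26 libraries held both above 1 CPM. Their counts differed by a chi-square per gene of 2.38, where sampling noise alone gives 1 and the next closest pair of replicates gave 8.54. In the other 3 libraries of PAC donor 1 *Xist* was at most 0.251 CPM beside Y-linked sums of 114 to 144 CPM, and in those of donor 2 *Xist* was at 59.9 to 91.7 CPM and the Y-linked genes at 0. These 2 libraries thus went against the label of a single donor and may hold one mixed material of both, which was not tested further. They are printed under their labelled donors and counted as 2 samples in n, as labelled. Their counts differed by more than sampling noise, but 2 libraries of 1 material could differ so too. They may thus not be separate samples, in which case n is too high and p-values that use both may be too small. Calls that depend on their 2 cultures are also given without them. As RNA came from whole cultures, fewer cells of a type and less RNA per cell cannot be told apart.

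Per kilobase of exon the *Hes* genes stood highest and *Mfng* lowest. In the 14 EtOH libraries the median level was 52.8 CPM per kilobase for *Hes6*, 35.7 for *Hes1*, 7.19 for *Lfng*, 3.57 for *Jag1*, 1.69 for *Dll4*, 1.63 for *Notch1*, 1.33 for *Rbpj*, 0.965 for *Dll1*, 0.757 for *Notch2* and 0.191 for *Mfng*. Neighbours in this order whose ranges did not overlap were *Hes6* and *Hes1*, *Hes1* and *Lfng*, *Jag1* and *Dll4*, and *Notch2* and *Mfng*. From *Dll4* down to *Notch2* each neighbouring pair overlapped. In the 14 4-HT libraries *Notch2* (1.12) stood above *Dll1* (0.924), and the order was otherwise the same. The length used is that of all annotated exons together, which lowers the level of genes with many alternative exons.

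**Figure D1:**
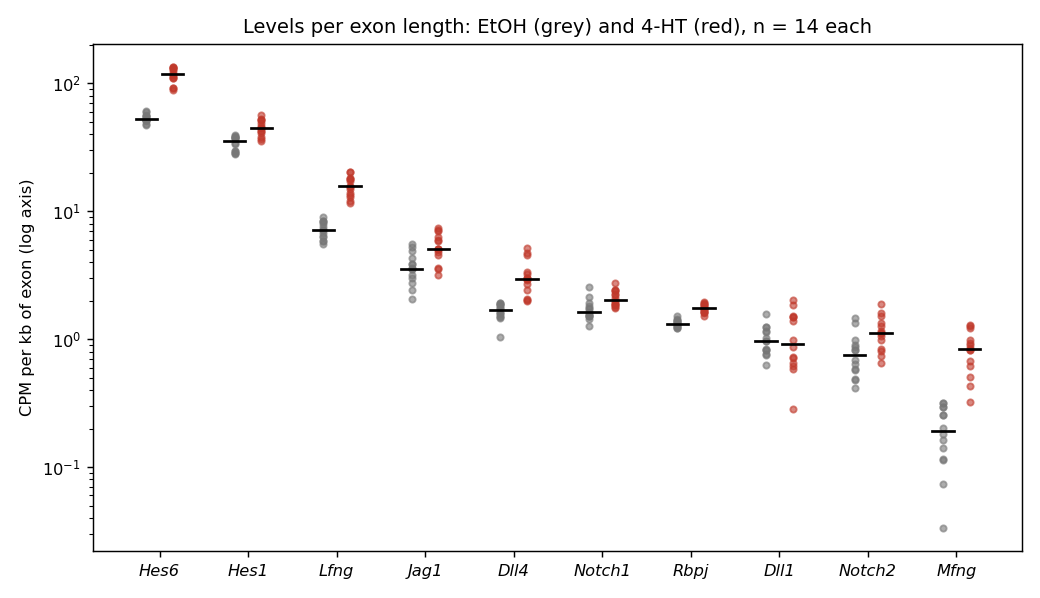
Level of the 10 Notch genes per kilobase of exon (y axis, CPM per kb, log axis) in the 14 EtOH libraries (grey) and the 14 4-HT libraries (red). Points are libraries and bars are medians, which run from 52.8 for Hes6 to 0.191 for Mfng under EtOH.

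With 4-HT the members that passed the test all rose, and the fringe gene *Lfng* and *Hes6* rose in all 4 genotypes. At an adjusted p under 0.01 (edgeR quasi-likelihood test, Benjamini-Hochberg over all genes), 2 of 10 members rose in AC, where 3.00% of all genes did. In PAC 6 of 10 rose beside 11.2% of all genes, in BAC organoids 4 of 10 beside 20.3%, and in BPAC 5 of 10 beside 22.0%. No member fell in any genotype by edgeR, limma-voom or DESeq2, where 4.25% of all genes fell in AC, 12.2% in PAC, 21.5% in BAC organoids and 23.0% in BPAC by edgeR. At an unadjusted p under 0.05, 1 member was lower, *Dll1* in BAC. The median log2 fold change of the members was 0.58 in AC, 0.66 in PAC, 0.63 in BAC organoids and 0.51 in BPAC, and that of all genes 0.0080, -0.027, -0.036 and -0.035. Scaling by library totals alone, without TMM, moved the median of all genes to 0.23, 0.20, 0.13 and 0.18 and raised the counts to 6, 8, 7 and 8 members in AC, PAC, BAC and BPAC, all higher, beside 11.2%, 25.1%, 28.7% and 32.0% of all genes, while over all genes 1511 rose and 302 fell in AC, against 406 and 574 with TMM. With the culture as a replicate block, 4 members rose in AC beside 7.45% of all genes, and 7 in BAC beside 25.3%. Without the duplicate 1 cultures of both PAC donors 1 member rose in PAC, *Hes6*, beside 0.163% of all genes, and with the block in addition 2 did, *Hes6* and *Lfng*, beside 3.03%. Without 1 AC culture, either of the 2, the AC calls of *Lfng* and *Hes6* were both lost. In duplicate 2 alone, with fewer libraries, the calls of *Lfng* in AC and PAC, *Hes6* in AC, *Hes1* in PAC, *Dll4* and *Rbpj* in PAC and BPAC, and *Mfng* in PAC, BAC and BPAC were lost, and those of *Rbpj* in PAC and BPAC were also lost in duplicate 1 alone.

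**Figure D2:**
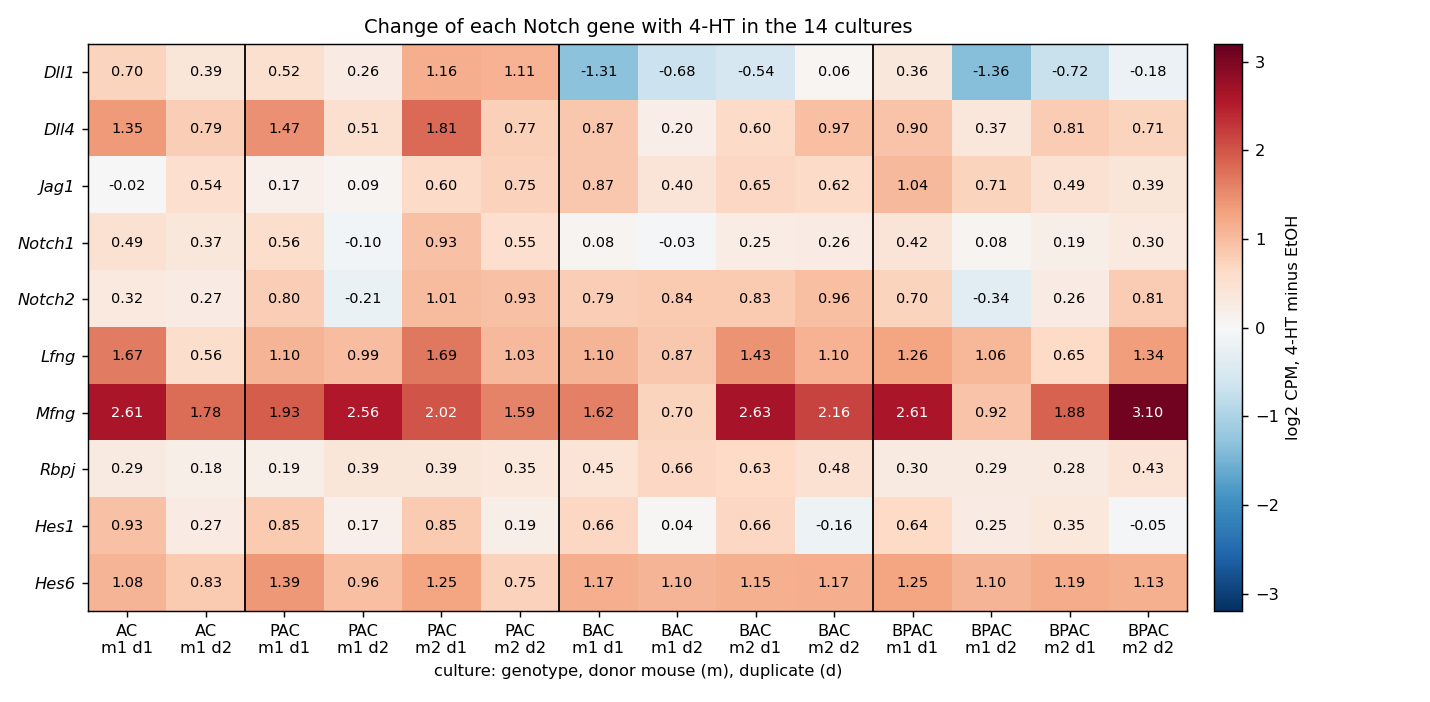
Change of each Notch gene with 4-HT (colour and printed number, log2 CPM in 4-HT minus EtOH, prior count of 2) in the 14 cultures, by genotype, donor and duplicate. Dll4, Lfng, Mfng, Rbpj and Hes6 are above 0 in all 14 cultures, and Dll1 is above 0 in 8 of them. The share of all genes above 0 in every culture is not given.

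*Dll4*, a Delta-like ligand on chromosome 2 from 119325784 to 119335962 (GRCm38), was higher after 4-HT in all 14 cultures. In AC it went from 7.14 and 7.44 CPM in duplicates 1 and 2 to 18.3 and 12.9 CPM. In PAC, with duplicates 1 and 2 of donor 1 before those of donor 2, here and below, *Dll4* went from 6.30, 7.27, 5.61 and 6.76 CPM to 17.6, 10.4, 19.9 and 11.6 CPM. The highest PAC values were those of the duplicate 1 libraries that held *Xist* and Y-linked counts together. In BAC *Dll4* went from 6.05, 6.72, 7.45 and 4.03 CPM to 11.1, 7.74, 11.4 and 7.98 CPM. In BPAC it went from 6.21, 5.86, 7.09 and 5.71 CPM to 11.6, 7.61, 12.5 and 9.38 CPM. The treatments did not overlap within any genotype. Here and below, the share of all genes without overlap, or with 1 direction in every culture, is not given. Neither trait is therefore read as particular to the members. The log2 fold change passed the threshold in PAC (1.20 ± 0.21 (SE), adjusted p = 0.000133) and BPAC (0.73 ± 0.21, adjusted p = 0.00480). It did not in AC (1.10 ± 0.30, adjusted p = 0.0125) and BAC (0.65 ± 0.21, adjusted p = 0.0111), but with the replicate block it passed in both (1.08, adjusted p = 0.00572 in AC and 0.66, adjusted p = 0.00604 in BAC). The PAC call was lost without the duplicate 1 cultures of both PAC donors (0.65, adjusted p = 0.141), and the BPAC call without duplicate 1 of donor 1 or either culture of donor 2 (0.66 to 0.73, adjusted p = 0.0182 to 0.0326). *Dll4* shares 214 exonic bases with *Gm14207* on the opposite strand, and whether the counting used strand was not given in the sources used here.

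*Dll1* was the member whose change with 4-HT differed with the *Braf* allele. It encodes another Delta-like ligand, found on secretory progenitors, and lies on chromosome 17 from 15367354 to 15376872, where 867 of its exonic bases are shared with an antisense gene that is not in the table. In AC *Dll1* went from 5.26 and 4.84 CPM to 8.61 and 6.36 CPM. In PAC it went from 4.33, 5.22, 3.45 and 2.67 CPM to 6.25, 6.27, 7.79 and 5.85 CPM. All 6 cultures without the *Braf* allele were higher with 4-HT, and the treatments did not overlap in either genotype. In BAC *Dll1* went from 6.62, 4.87, 4.05 and 3.51 CPM to 2.62, 3.01, 2.76 and 3.67 CPM. In BPAC it went from 3.21, 3.19, 4.09 and 3.49 CPM to 4.13, 1.20, 2.45 and 3.08 CPM. Of these 8 cultures 6 were lower with 4-HT, and duplicate 2 of BAC donor 2 and duplicate 1 of BPAC donor 1 were higher. Within a genotype *Dll1* did not pass the test, with a log2 fold change of 0.57 ± 0.36 in AC (adjusted p = 0.302), 0.74 ± 0.26 in PAC (adjusted p = 0.0268), -0.67 ± 0.26 in BAC organoids (adjusted p = 0.0336) and -0.36 ± 0.26 in BPAC (adjusted p = 0.256).

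The test of the difference itself, genotypes with minus genotypes without the *Braf* allele, passed for *Dll1* at -1.17 ± 0.29 on the log2 scale (adjusted p = 0.00784). It was 1 of 10 members with a lower response, where 3.55% of all genes had one, and 0 of 10 had a higher response, where 3.05% did. At an unadjusted p under 0.05 no member had a higher response, and limma-voom and DESeq2 also called 0. The per-culture change of *Dll1* ran from -1.36 to 0.36 with the allele and from 0.26 to 1.16 without it. These ranges overlapped over all cultures by a small margin, but within duplicate 1 and within duplicate 2 they did not. The call was lost without the duplicate 1 cultures of both PAC donors (-1.11, adjusted p = 0.0329), also with the block in addition (adjusted p = 0.0138), in duplicate 1 alone (0.0288), in duplicate 2 alone (0.300) and with counts summed per donor (0.0247). Leaving out 1 culture at a time, it was lost for 10 of the 14 (-1.24 to -1.03, adjusted p = 0.0125 to 0.0685): either AC culture, either culture of BAC donor 1, duplicate 1 of BAC donor 2, either culture of BPAC donor 2, duplicate 1 of PAC donor 1 and either culture of PAC donor 2.

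The *Dll1* levels after 4-HT also differed. With the *Braf* allele *Dll1* stood at 2.86 ± 0.872 CPM (SD, n = 8) in 4-HT libraries and without it at 6.86 ± 1.09 CPM (SD, n = 6). The highest library with the allele, 4.13 CPM, was under the lowest without it, 5.85 CPM. In EtOH libraries the means were 4.13 ± 1.15 CPM (SD, n = 8) and 4.30 ± 1.04 CPM (SD, n = 6). The log2 difference after 4-HT was -1.29 ± 0.20 (adjusted p = 1.70e-05), and it passed with each culture left out in turn and without the duplicate 1 cultures of both PAC donors (-1.23, adjusted p = 0.000248), but was lost in duplicate 2 alone (-1.21, adjusted p = 0.0224). Without those PAC cultures the 4 remaining libraries without the allele stood at 6.78 ± 1.25 CPM (SD, n = 4). Summed markers of other cells were lower with the allele as well. After 4-HT the 3 immune genes summed to 0.779 to 1.37 CPM with the allele and 2.53 to 3.52 CPM without it, and the 3 endothelial genes to 2.62 to 3.97 and 4.23 to 5.60 CPM, on the scale of *Dll1* itself. *Pdgfrb* was at 0.238 to 2.07 and 1.47 to 3.83 CPM. Their part in the differences of *Dll1*, *Hes5* and other genes of low level was not tested. The donors of the genotypes were different mice, so donor and allele cannot be told apart in a level. A response to 4-HT that differs between donors cannot be told apart from the allele either.

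After 4-HT, 3 of 10 members were lower with the *Braf* allele, *Dll1*, *Dll4* and *Notch1*, beside 14.6% of all genes. None was higher, beside 15.6%, although 2 were at an unadjusted p under 0.05, and limma-voom and DESeq2 called 0 higher as well. *Dll4* stood at 9.92 ± 1.98 CPM (SD, n = 8) with the allele and 15.1 ± 3.98 CPM (SD, n = 6) without it, with ranges that overlapped (-0.62 ± 0.16, adjusted p = 0.00293). When the duplicate 1 cultures of both PAC donors were left out it stood at 13.3 ± 3.50 CPM (SD, n = 4) without the allele. The *Dll4* call was lost without AC duplicate 1 (-0.48, adjusted p = 0.0498) and without the duplicate 1 cultures of both PAC donors (-0.40, adjusted p = 0.0436). Without those cultures *Hes6* was higher with the allele (0.33, adjusted p = 0.00282). In EtOH libraries no member differed with the *Braf* allele, where 0.0296% of all genes did. By limma-voom and DESeq2 there were also 0, and at an unadjusted p under 0.05 there was 1, *Notch2* (-0.66 ± 0.23, adjusted p = 0.154).

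**Figure D3:**
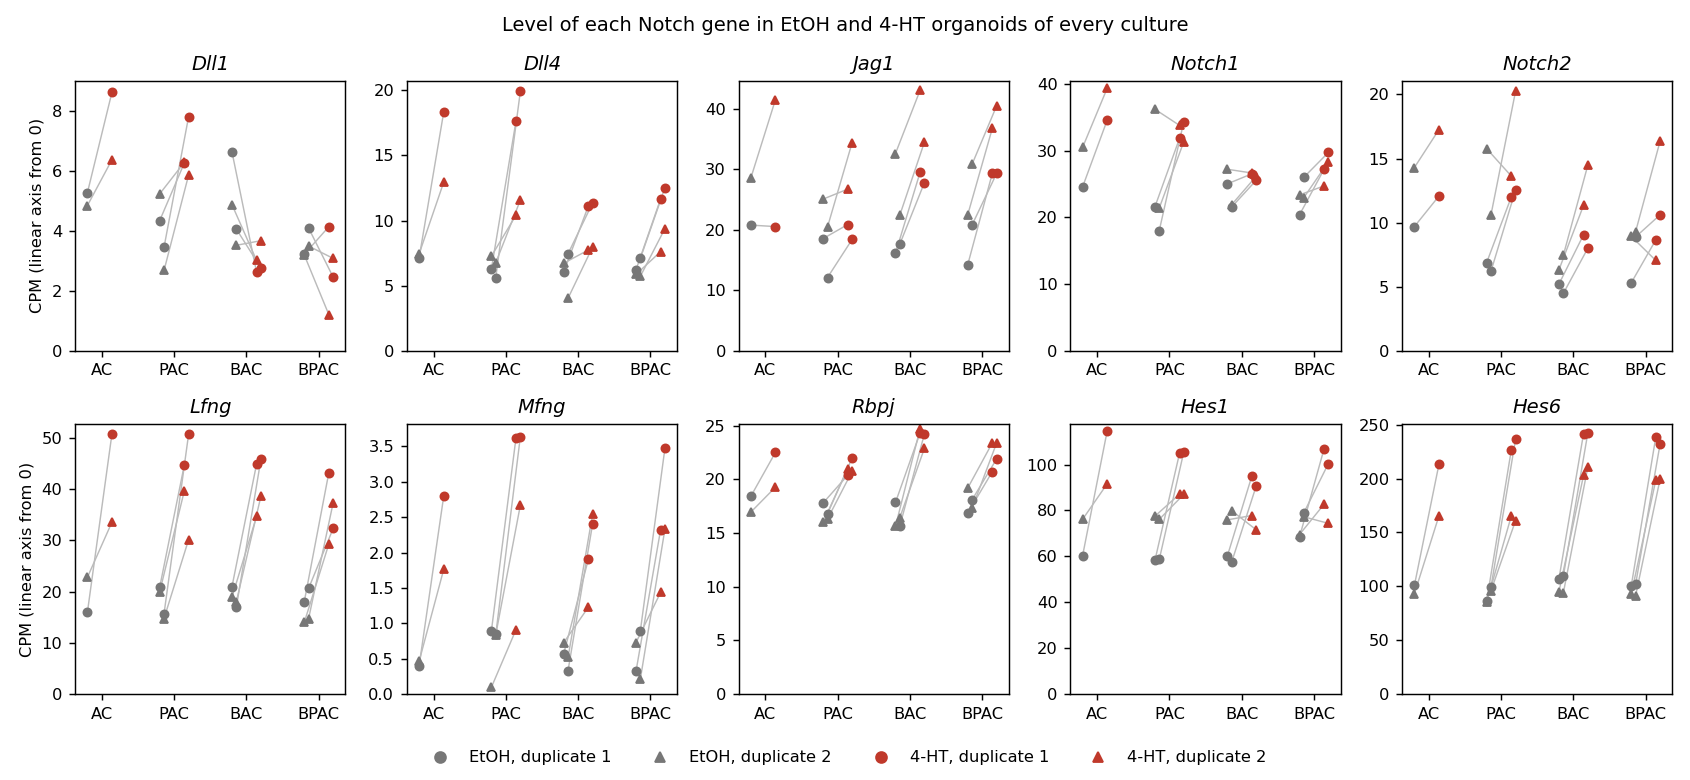
Level of each Notch gene (y axis, CPM) in every library by genotype (x axis), EtOH in grey and 4-HT in red, circles for duplicate 1, triangles for duplicate 2, a line for each culture. After 4-HT, Dll1 lies at 1.20 to 4.13 CPM in BAC and BPAC and at 5.85 to 8.61 CPM in AC and PAC.

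*Jag1*, a ligand of the Jagged class on chromosome 2 from 137081456 to 137116644, passed in no genotype. Its log2 fold change was 0.33 ± 0.38 in AC (adjusted p = 0.610), 0.40 ± 0.27 in PAC (adjusted p = 0.254), 0.60 ± 0.27 in BAC organoids (adjusted p = 0.0590) and 0.62 ± 0.27 in BPAC (adjusted p = 0.0507). It was higher with 4-HT in 13 of 14 cultures, and in AC duplicate 1 it went from 20.8 to 20.5 CPM. The duplicates stood at different levels. In EtOH libraries *Jag1* ran from 12.1 to 20.8 CPM in duplicate 1 and from 20.5 to 32.6 CPM in duplicate 2. With the replicate block, which compares libraries taken as pairs from 1 culture, *Jag1* passed in BAC (0.63, adjusted p = 0.000387) and BPAC (0.65, adjusted p = 0.000283).

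Neither receptor passed in any genotype. *Notch1*, on chromosome 2 from 26457903 to 26516663, had a log2 fold change of 0.43 ± 0.20 in AC, 0.44 ± 0.14 in PAC (adjusted p = 0.0195), 0.13 ± 0.14 in BAC organoids and 0.25 ± 0.14 in BPAC. Blocked by culture, it passed in PAC (0.48, adjusted p = 0.00316), but not without the duplicate 1 cultures of both PAC donors (0.22, adjusted p = 0.277). In 4-HT libraries *Notch1* ran from 24.7 to 29.8 CPM with the *Braf* allele and from 31.4 to 39.4 CPM without it. These ranges did not overlap (-0.38 ± 0.11, adjusted p = 0.00853), but the call was lost on leaving out any 1 of 11 cultures (-0.42 to -0.33, adjusted p = 0.0111 to 0.0583), all except duplicate 1 of BPAC donor 2, duplicate 2 of PAC donor 1 and duplicate 1 of PAC donor 2. *Notch2*, on chromosome 3 from 98013527 to 98150361, varied from 4.47 to 15.8 CPM among EtOH libraries. Its log2 fold change was 0.29 ± 0.40 in AC, 0.57 ± 0.29 in PAC, 0.87 ± 0.29 in BAC organoids (adjusted p = 0.0146) and 0.39 ± 0.29 in BPAC. In BAC *Notch2* went from 5.20, 6.32, 4.47 and 7.44 CPM to 9.05, 11.3, 8.003 and 14.5 CPM, without overlap, and this change passed with the replicate block (0.86, adjusted p = 0.000905). It went down in 2 of 14 cultures, duplicate 2 of donor 1 in both PAC and BPAC. *Notch1* and *Notch2* each share exonic bases with annotated genes that are not in the table.

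Both fringe genes were higher after 4-HT in all 14 cultures. *Lfng*, on chromosome 5 from 140607320 to 140615545, encodes a glycosyltransferase that extends O-fucose on Notch receptors, and its upstream window held TGGGAA on both strands. It stood at 13.97, 18.0 and 22.8 CPM (lowest, median and highest) in the 14 EtOH libraries. In the 14 4-HT libraries *Lfng* stood at 29.3, 39.1 and 50.9 CPM, so the treatments did not overlap anywhere in the series. It rose 2.18-fold in AC (log2 1.13 ± 0.25, adjusted p = 0.00341), 2.32-fold in PAC (adjusted p = 2.24e-05), 2.19-fold in BAC organoids (adjusted p = 8.16e-06) and 2.12-fold in BPAC (adjusted p = 1.31e-05). The difference with the *Braf* allele was -0.063 ± 0.19 (adjusted p = 0.870). The AC call was lost without either AC culture (0.56 to 1.67, adjusted p = 0.0137 to 0.393), and the PAC call without the duplicate 1 cultures of both PAC donors (1.01, adjusted p = 0.0249).

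*Mfng*, another fringe gene, on chromosome 15 from 78755882 to 78773475, was the lowest member, with 2 to 146 counts per library, and had the largest log2 fold change of the 10 in each genotype. In EtOH libraries *Mfng* ran from 0.0950 to 0.895 CPM with a median of 0.543. In 4-HT libraries it ran from 0.909 to 3.64 CPM with a median of 2.37. The lowest library of each treatment came from the same culture, duplicate 2 of PAC donor 1, and the treatments did not overlap. *Mfng* rose in PAC (2.00 ± 0.47, adjusted p = 0.00188), BAC (1.90 ± 0.48, adjusted p = 0.00188) and BPAC (2.14 ± 0.49, adjusted p = 0.000597). In AC it was at 2.40 ± 0.70 (adjusted p = 0.0201) and passed with the replicate block (2.37, adjusted p = 0.00382). The PAC call was lost without duplicate 1 of either donor (1.94 to 2.00, adjusted p = 0.0126 to 0.0150) or of both (1.89, adjusted p = 0.101), and the BAC call without either culture of donor 2 (1.63 to 1.76, adjusted p = 0.0150 to 0.0216).

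*Rbpj*, the DNA-binding partner of the cleaved receptor, on chromosome 5 from 53466152 to 53657362, changed by little and with little spread. It ran from 15.6 to 19.2 CPM with a median of 16.9 in EtOH libraries. In 4-HT libraries it ran from 19.3 to 24.7 CPM with a median of 22.2. Every 4-HT library was above every EtOH library. *Rbpj* rose in PAC (0.33 ± 0.077, adjusted p = 0.00175), BAC (0.55 ± 0.077, adjusted p = 1.85e-06) and BPAC (0.32 ± 0.077, adjusted p = 0.000920), and was at 0.24 ± 0.11 in AC (adjusted p = 0.130). The PAC call was lost without duplicate 2 of donor 1 or either culture of donor 2 (0.31 to 0.32, adjusted p = 0.0104 to 0.0185) and without the duplicate 1 cultures of both PAC donors (0.37, adjusted p = 0.0618), and the BPAC call without duplicate 2 of donor 2 (0.29, adjusted p = 0.0124).

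*Hes6* encodes a HES protein known to oppose HES1 and to accompany differentiation, and lies on chromosome 1 from 91411483 to 91414038. It stood at 85.1, 95.4 and 109 CPM (lowest, median and highest) in EtOH libraries and at 161, 212 and 243 CPM in 4-HT libraries. The treatments did not overlap, and all 7 duplicate 2 libraries lay under all 7 duplicate 1 libraries after 4-HT. *Hes6* rose 1.96-fold in AC (adjusted p = 0.000500), 2.15-fold in PAC (adjusted p = 8.21e-07), 2.22-fold in BAC organoids (adjusted p = 1.74e-08) and 2.25-fold in BPAC (adjusted p = 9.26e-09). The log2 change per culture was 1.16 ± 0.051 (SD, n = 8) with the *Braf* allele and 1.04 ± 0.25 (SD, n = 6) without it, or 0.90 ± 0.15 (SD, n = 4) when the duplicate 1 cultures of both PAC donors were left out. The AC call was lost without either AC culture (0.83 to 1.08, adjusted p = 0.0174 to 0.0657), and the PAC call was kept without the duplicate 1 cultures of both PAC donors (0.85, adjusted p = 0.00352).

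*Hes1*, the target through which Notch signalling represses *Atoh1*, on chromosome 16 from 30064384 to 30067796, changed differently in the 2 duplicates. In the 7 cultures of duplicate 1 it went from 57.3, 59.9 and 79.0 CPM (lowest, median and highest) to 90.6, 105 and 115 CPM. In the 7 cultures of duplicate 2 it went from 69.5, 76.2 and 80.0 CPM to 71.6, 82.7 and 91.7 CPM. The log2 change ran from 0.35 to 0.93 in duplicate 1, higher in 7 of 7, and from -0.16 to 0.27 in duplicate 2, higher in 5 of 7, without overlap. Over both duplicates *Hes1* rose in PAC (0.51 ± 0.14, adjusted p = 0.00565) and was at 0.60 ± 0.19 in AC (adjusted p = 0.0368), 0.30 ± 0.14 in BAC organoids (adjusted p = 0.0724) and 0.31 ± 0.14 in BPAC (adjusted p = 0.0577). The PAC call was lost with the replicate block (0.52, adjusted p = 0.0132), without duplicate 1 of either donor (0.40, adjusted p = 0.0685 to 0.0721) and without both (0.18, adjusted p = 0.578).

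No member's change differed with the *Trp53* allele. By edgeR, limma-voom and DESeq2 0 of 10 passed, with 0 at an unadjusted p under 0.05 in each, beside 0.0148% of all genes by edgeR. *Dll1* had the largest edgeR estimate of the 10, 0.24 ± 0.29 on the log2 scale, but it was 0.48 in duplicate 1 and -0.039 in duplicate 2.

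**Figure D4:**
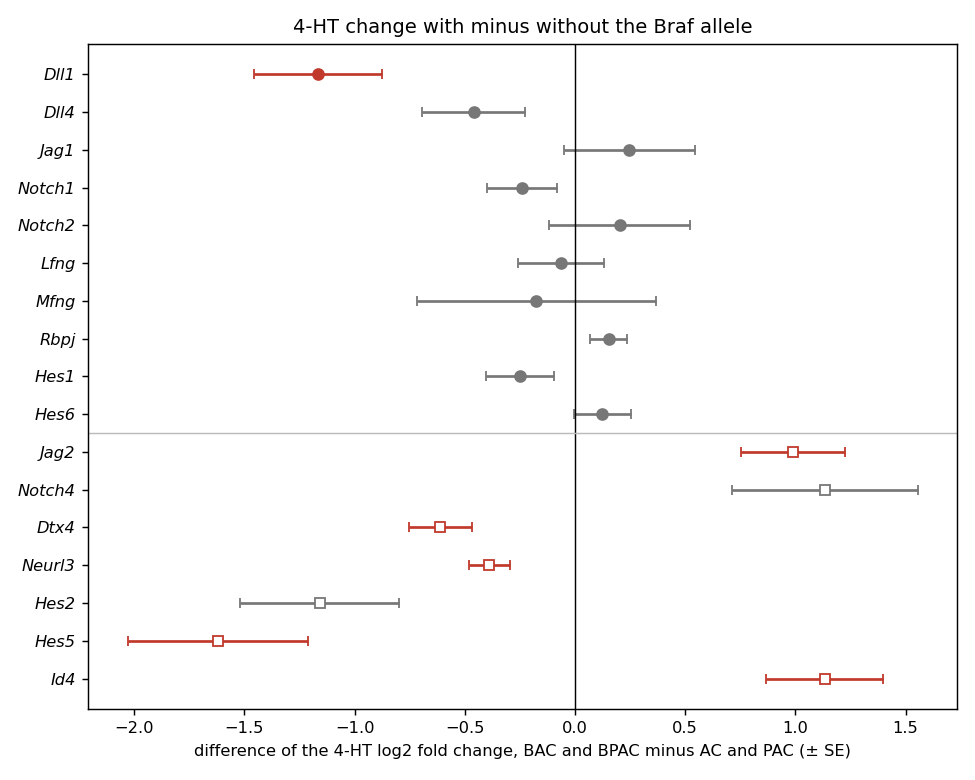
Difference in the 4-HT log2 fold change of genotypes carrying the Braf allele minus that of the others (x axis), bars showing the standard error, for the 10 members (filled circles) and 7 other pathway genes (open squares). Red marks an adjusted p under 0.01, reached by Dll1 (-1.17) among the members.

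Of 53 further genes listed by role, 45 were in the table. Of these 2 rose and 4 fell in AC, 6 and 7 in PAC, 6 and 11 in BAC organoids, and 7 and 13 in BPAC. Of all genes 3.00% rose and 4.25% fell in AC, 11.2% and 12.2% in PAC, 20.3% and 21.5% in BAC organoids, and 22.0% and 23.0% in BPAC. The median log2 fold change of the 45 genes was 0.068, -0.064, -0.0032 and -0.10. Under the replicate block 7.45%, 16.5%, 25.3% and 26.7% of all genes rose and 8.99%, 18.4%, 26.7% and 27.7% fell, and of the 45 the counts were 3 and 7 in AC, 9 and 11 in PAC, 10 and 16 in BAC organoids, and 11 and 18 in BPAC. Without the duplicate 1 cultures of both PAC donors 0 of the 45 passed in PAC by edgeR and 0 differed with the *Braf* allele, with 13 and 15 at an unadjusted p under 0.05. Blocked by culture in addition, 1 rose and 1 fell in PAC, and 1 responded more and 4 less with the *Braf* allele. In that fit 3.03% of all genes rose and 3.71% fell in PAC, and 6.21% responded more and 7.37% less, against 0.163%, 0.192%, 2.79% and 3.05% without the block. Every AC call named below was lost without either AC culture, and that of *Neurog3* also without duplicate 1 of PAC donor 1.

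Among the 6 other receptors and ligands, *Jag2*, a Jagged ligand, differed with the *Braf* allele in the direction opposite to *Dll1*. It went from 8.33 and 11.4 CPM to 13.9 and 17.8 CPM in AC and from 8.88, 8.36, 17.5 and 11.8 CPM to 19.5, 11.8, 18.2 and 20.6 CPM in PAC. In BAC *Jag2* went from 18.0, 19.0, 13.6 and 14.05 CPM to 65.4, 55.0, 64.1 and 51.9 CPM. In BPAC it went from 15.9, 27.7, 16.0 and 20.8 CPM to 51.9, 59.1, 49.3 and 49.7 CPM. Every 4-HT library with the *Braf* allele was above every library without it. *Jag2* rose in BAC organoids (1.87 ± 0.21, adjusted p = 1.06e-07) and BPAC (1.38 ± 0.21, adjusted p = 5.12e-06). It was at 0.68 ± 0.30 in AC and 0.59 ± 0.21 in PAC (adjusted p = 0.0305). In PAC it passed when blocked by culture (0.62, adjusted p = 0.00293). That blocked call was lost without the duplicate 1 cultures of both PAC donors (0.67, adjusted p = 0.0179). The difference with the *Braf* allele was 0.99 ± 0.24 (adjusted p = 0.00583), at adjusted p = 0.0105 without the duplicate 1 cultures of both PAC donors and 0.000419 with the block in addition. It was lost on leaving out either AC culture, duplicate 1 of either donor of BAC or BPAC, or duplicate 2 of donor 2 of BAC or BPAC (0.93 to 1.01, adjusted p = 0.010001 to 0.0391). In EtOH libraries the difference of *Jag2* with the allele was 0.75 ± 0.17 (adjusted p = 0.0788, and 0.00557 by DESeq2). *Notch4* rose in BAC organoids (1.97 ± 0.38) and BPAC (1.75 ± 0.38), and *Dll3*, with 0 to 167 counts per library, rose in PAC (3.54 ± 0.72), BAC (2.32 ± 0.65) and BPAC (2.32 ± 0.62). The BAC call of *Dll3* was lost without duplicate 2 of donor 1 or either culture of donor 2 (1.84 to 2.40, adjusted p = 0.0120 to 0.0461), and its BPAC call without duplicate 2 of donor 2 (2.03, adjusted p = 0.0149).

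**Figure D5:**
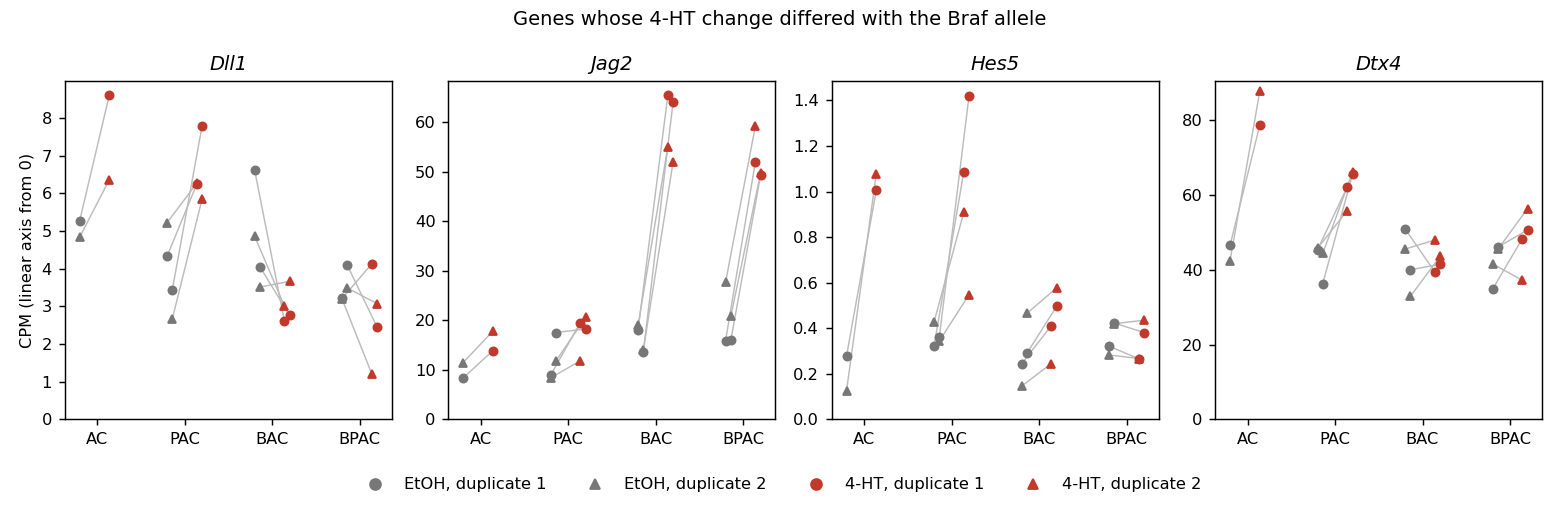
Level (y axis, CPM) of Dll1, Jag2, Hes5 and Dtx4 in every library by genotype, EtOH in grey and 4-HT in red, circles for duplicate 1, triangles for duplicate 2, a line for each culture. After 4-HT, Jag2 is at 49.3 to 65.4 CPM in BAC and BPAC and at 11.8 to 20.6 CPM in AC and PAC.

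*Hes5*, another direct Notch target, was counted 3 to 41 times per library. It went from 0.279 and 0.126 CPM to 1.01 and 1.08 CPM in AC and from 0.322, 0.427, 0.361 and 0.344 CPM to 1.09, 0.909, 1.42 and 0.548 CPM in PAC. In BAC and BPAC no library exceeded 0.577 CPM under either treatment. *Hes5* rose in AC (2.33 ± 0.52, adjusted p = 0.00364) and PAC (1.45 ± 0.34, adjusted p = 0.00203) and was at 0.63 ± 0.37 in BAC organoids and -0.10 ± 0.37 in BPAC. The PAC call was lost without duplicate 1 of either donor (1.22 to 1.34, adjusted p = 0.0214 to 0.0304) or of both (0.90, adjusted p = 0.285). Its difference with the *Braf* allele was -1.62 ± 0.41 (adjusted p = 0.00893). That call was lost for 12 of the 14 cultures left out in turn (-1.98 to -1.37, adjusted p = 0.0110 to 0.0814), the exceptions being duplicate 2 of BAC donor 1 and duplicate 2 of PAC donor 2, and without the duplicate 1 cultures of both PAC donors (-1.35, adjusted p = 0.0538). *Hes2*, with 8 to 101 counts per library, fell by 1.85 in AC, fell by 1.09 in PAC, fell by 2.07 in BAC organoids and fell by 3.18 in BPAC on the log2 scale, and the AC and PAC calls were each lost for 7 of the 14 cultures left out in turn. *Id4*, an inhibitor of basic helix-loop-helix factors, rose in BPAC (1.08 ± 0.24) and responded more with the *Braf* allele, a difference of 1.13 ± 0.26 (adjusted p = 0.00510). In BAC it passed when blocked by culture (0.69, adjusted p = 0.00744).

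Of the 11 ubiquitin ligases and adaptors in the table, *Neurl3* and *Neurl1b*, of the Neuralized family that acts on Notch ligands, fell in all 4 genotypes. The log2 fold change of *Neurl3* was -0.52 in AC, -0.48 in PAC, -0.86 in BAC organoids and -0.92 in BPAC, and that of *Neurl1b* -1.06, -0.61, -1.31 and -1.32. The PAC call of *Neurl1b* was lost without duplicate 1 of either donor (-0.55 to -0.54, adjusted p = 0.0132 to 0.0136). The response of *Neurl3* was lower with the *Braf* allele, a difference of -0.39 ± 0.092 (adjusted p = 0.00583). *Dtx4*, a Deltex ligase, rose in AC (0.90 ± 0.18) and PAC (0.54 ± 0.13), was at 0.024 ± 0.13 in BAC organoids and 0.20 ± 0.13 in BPAC, and responded less with the allele, a difference of -0.61 ± 0.14 (adjusted p = 0.00482). Its PAC call was lost without either culture of donor 2 (0.44 to 0.53, adjusted p = 0.0110 to 0.0303). Without the duplicate 1 cultures of both PAC donors these differences were at adjusted p = 0.0128 for *Neurl3*, 0.0239 for *Dtx4* and 0.0258 for *Id4*, and with the block in addition 0.00377, 0.0107 and 0.0120. On leaving out 1 culture at a time the calls of *Neurl3* and *Dtx4* were lost for 6 of 14 cultures each (-0.43 to -0.35, adjusted p = 0.0123 to 0.0546; -0.68 to -0.54, adjusted p = 0.0107 to 0.0591) and that of *Id4* for 8 (1.01 to 1.22, adjusted p = 0.0107 to 0.0508), both AC cultures and duplicate 1 of both BAC donors among them for each gene. *Dtx3*, another Deltex gene, rose in PAC (1.46 ± 0.34), a call lost without duplicate 1 of either donor (1.31 to 1.39, adjusted p = 0.0162 to 0.0211). *Numb*, an adaptor that opposes Notch, fell in PAC (-0.53 ± 0.15), BAC (-0.55 ± 0.15) and BPAC (-0.83 ± 0.15), and its PAC call was lost without duplicate 1 of donor 1 or either culture of donor 2 (-0.55 to -0.45, adjusted p = 0.0187 to 0.0581) and its BAC call without duplicate 1 of either donor (-0.52 to -0.48, adjusted p = 0.0173 to 0.0255). Blocked by culture, *Neurl1b* (-0.48, adjusted p = 0.00754) and *Dtx3* (-1.01, adjusted p = 0.00919) also responded less with the *Braf* allele. In the blocked fit without the duplicate 1 cultures of both PAC donors *Neurl1b* kept this call (-0.58, adjusted p = 0.00310) and *Dtx3* lost it (-0.85, adjusted p = 0.0471).

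Genes of receptor cleavage that passed all fell, 1 of 10 in AC, 3 in PAC, 5 in BAC organoids and 6 in BPAC, and 3 fell in AC with the replicate block, beside 8.99% of all genes there. In the unblocked fit 4.25%, 12.2%, 21.5% and 23.0% of all genes fell in AC, PAC, BAC and BPAC. *Ncstn*, which encodes the gamma-secretase subunit nicastrin, fell in every genotype, by log2 fold changes of -0.46, -0.49, -0.55 and -0.78. *Aph1b*, another subunit, fell in BAC (-0.92 ± 0.18) and BPAC (-0.71 ± 0.18), the latter lost without duplicate 2 of donor 2 (-0.64, adjusted p = 0.0116). *Aph1c*, with 2 to 38 counts per library, fell in BAC (-1.80 ± 0.54) and BPAC (-1.79 ± 0.53), calls lost without any 1 BAC culture (-1.95 to -1.58, adjusted p = 0.0131 to 0.0508) and without either culture of donor 1 or duplicate 1 of donor 2 in BPAC (-1.92 to -1.46, adjusted p = 0.0118 to 0.0541). Of 11 genes of the nuclear complex, 2 rose and 0 fell in PAC, and 2 rose and 1 fell in BAC organoids and in BPAC, beside 11.2%, 20.3% and 22.0% of all genes that rose. Blocked by culture, 1, 2 and 3 fell, beside 18.4%, 26.7% and 27.7% of all genes. The acetyltransferase *Kat2a* rose in PAC (0.71 ± 0.12), BAC (0.99 ± 0.12) and BPAC (1.01 ± 0.12), and none of the 11 genes passed in AC by edgeR, with 3 at an unadjusted p under 0.05. The related acetyltransferase *Kat2b* fell in BAC (-0.86 ± 0.22, adjusted p = 0.00215), a call lost without duplicate 1 of donor 1 or either culture of donor 2 (-0.85 to -0.73, adjusted p = 0.0103 to 0.0168). In PAC *Kat2b* was at -0.43 ± 0.22 and in BPAC at -0.63 ± 0.22, and both passed when blocked by culture (-0.48, adjusted p = 0.00714 in PAC and -0.64, adjusted p = 0.000507 in BPAC). The blocked PAC call was lost without the duplicate 1 cultures of both PAC donors (-0.31, adjusted p = 0.226).

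The fates that Notch signalling divides were read from 3 lists of 10 genes each. Secretory transcription factors that passed all rose, 2 in AC, 6 in PAC, 6 in BAC organoids and 8 in BPAC, beside 3.00%, 11.2%, 20.3% and 22.0% of all genes. *Atoh1*, which HES1 represses, had log2 fold changes of 1.499, 1.49, 1.29 and 1.29, past the threshold in each genotype. *Neurog3*, the factor of endocrine precursors, rose in every genotype, by log2 fold changes of 1.41, 1.96, 1.64 and 2.21. Of the secretory products 1 rose in PAC, 1 rose and 4 fell in BAC organoids and in BPAC, and 0 passed in AC by edgeR, with 1 at an unadjusted p under 0.05. Blocked by culture, 2 products fell in AC, and 2 rose and 3 fell in PAC, where 8.99% of all genes fell in AC, and 16.5% rose and 18.4% fell in PAC. Absorptive genes that passed all fell, 5 in AC, 8 in PAC, 8 in BAC organoids and 10 in BPAC, beside 4.25%, 12.2%, 21.5% and 23.0% of all genes. The log2 fold change of the alkaline phosphatase *Alpi* was -1.99, -1.69, -2.03 and -2.59, and that of the keratin *Krt20* was -1.79, -1.84, -1.74 and -2.14. *Fabp2*, a fatty acid binding protein, was at -2.02, -1.498, -1.65 and -1.91. Without the duplicate 1 cultures of both PAC donors 0 secretory factors and 0 absorptive genes passed in PAC by edgeR, with 5 and 7 at an unadjusted p under 0.05. With the block in addition 2 secretory factors rose and 5 absorptive genes fell there, beside 3.03% and 3.71% of all genes. The part of these changes in those of the members was not tested.

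For each member that passed in at least 1 genotype, the 2 genes with the closest course over the 28 libraries were found by the mean absolute difference of centred log2 CPM. They were *Cdc42ep1* (0.132) and *Zfp553* (0.155) for *Dll4*, *Chaf1b* (0.181) and *Sox9* (0.186) for *Lfng*, *Ephb3* (0.468) and *Cited4* (0.480) for *Mfng*, *Tmem201* (0.0829) and *Cnot2* (0.0833) for *Rbpj*, *Spc24* (0.136) and *Srsf11* (0.137) for *Hes1* and *Irf2bp1* (0.0894) and *Rrs1* (0.107) for *Hes6*. The difference was largest for *Mfng*, which had the fewest counts.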

How the data were processed

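Bulk RNA was sequenced in 28 libraries from 14 mouse colon organoid cultures, each under EtOH and 4-HT. The deposited table holds raw counts of reads per Ensembl gene. Per the study's methods and processing notes, the authors trimmed reads with Trimmomatic 0.39 and aligned them to GRCm38 with STAR 2.5.2b; the counting program, its annotation and its strand setting were not given in the sources used here. The smallest sum of a gene over the libraries was 116 counts, and no gene was removed here. Symbols and positions came from GENCODE vM21 (13479 of 13519 genes matched) and upstream sequences from RefSeq.

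Counts were fitted with edgeR 4.0.16 in R 4.3.3 (TMM, quasi-likelihood test, 8 groups sharing one spread), where the study used limma, with Benjamini-Hochberg adjustment over all genes and a threshold of 0.01. Contrasts were 4-HT against EtOH per genotype, the differences in that change with the *Braf* and *Trp53* alleles, and the *Braf* difference in level under each treatment. Changes per culture are log2 CPM with a prior count of 2. Duplicates of 1 donor are not separate mice, so p-values measure the spread between these cultures and may be too small.

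The labels give a donor and a duplicate number, and libraries that share both were taken as pairs from 1 culture. The label of 1 library, the 4-HT library of BAC donor 1 taken as duplicate 1, carries no duplicate number. Deviations of paired libraries from the group means correlated in all 12 cultures that could be checked (lowest 0.245, mean 0.416). A shift shared by all libraries of 1 duplicate number would give this too, so the check cannot show that paired libraries share a culture. For duplicate 1 of both PAC donors, whose 4-HT libraries went against the label of a single donor, the pairing is in doubt, and blocked PAC values rest on it. Alternatives were limma-voom 3.58.1, DESeq2 1.42.0, a replicate block, other scalings, filters and thresholds, each duplicate alone, thinning, counts summed per donor and each culture left out; leaving out the duplicate 1 cultures of both PAC donors together with the replicate block was added after seeing the data. On simulated counts for all 13519 genes with 200 changed, the fit recovered 62.5% for AC and 74% for BAC, with 1 and 0 other genes called. The simulated counts held no donor, duplicate or culture effects and fewer changed genes than were called here. They therefore cannot show the rate of false calls in these data.

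The members and gene lists were chosen with earlier results of these data known. All 10 members are named, with the other pathway genes past the threshold in all 4 genotypes or in the *Braf* contrast, then the 8 with the largest changes, up to 3 genes of each fate list past the threshold in all 4 genotypes, and the 2 genes nearest to each called member.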

Additional observations from a re-analysis of the deposited data

Results flagged for a closer look

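In groups of 4 libraries or cultures, a value whose gap to its nearest neighbour exceeded Dixon's critical value for a share of the group's range was marked. Of 90 groups tested 4 were marked, where chance marks about 1 in 20. *Notch2* stood at 5.30 CPM in 1 BPAC EtOH library, duplicate 1 of donor 1, and at 8.88 to 9.28 CPM in the other 3. *Mfng* stood at 0.0950 CPM in the EtOH library of duplicate 2 of PAC donor 1 and at 0.840 to 0.895 CPM in the other PAC EtOH libraries. The log2 change of *Lfng* was 1.69 in duplicate 1 of PAC donor 2 and 0.99 to 1.10 in the other PAC cultures. That of *Rbpj* was 0.43 in duplicate 2 of BPAC donor 2 and 0.28 to 0.30 in the other BPAC cultures.

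The change of *Dll1* with 4-HT was lower in organoids carrying the *Braf* allele than in the others, a difference of -1.17 on the log2 scale, by a test of the difference itself. It was higher with 4-HT in 6 of 6 cultures without the allele and in 2 of 8 with it. Of those 6 cultures, 2 are the PAC duplicate 1 cultures whose 4-HT libraries held *Xist* with Y-linked counts. The call was lost without them (adjusted p = 0.0329), in either duplicate alone, with counts summed per donor and on leaving out any 1 of 10 of the 14 cultures.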

How the results depend on the processing

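Each of 29 settings other than the reported one changed 1 choice, apart from the added one named below. Over the members' changes in each genotype, their differences in response with the *Braf* allele, and those level and *Trp53* differences named with the results, 1405 values kept their direction and side of the threshold, 81 no longer passed, 72 newly passed and 14 turned direction; none of the 14 was past the threshold in the reported fit. In AC the number of members that changed was 2 as reported, 4 with the replicate block, with DESeq2, with counts summed per donor, in duplicate 1 alone, with the duplicate as a covariate and with the block without the duplicate 1 cultures of both PAC donors, 6 with library totals alone, 5 at a threshold of 0.05, and 0 when each genotype was fitted alone or in duplicate 2 alone. In PAC it was 6 as reported, 3 with the genotype fitted alone, 1 in duplicate 2 alone, and 1 without the duplicate 1 cultures of both PAC donors or 2 with the block in addition. In BAC it was 4 as reported and 7 with the replicate block (with or without those PAC cultures), with library totals alone, at a threshold of 0.05, in duplicate 1 alone and with the duplicate as a covariate. In BPAC it was 5 as reported, 8 with library totals alone and 2 in duplicate 2 alone. The 1 member that differed in response with the *Braf* allele became 0 with counts summed per donor, in either duplicate alone and without the duplicate 1 cultures of both PAC donors, with or without the block; the 3 that differed in level after 4-HT became 0 in duplicate 2 alone. With 1 culture left out the counts ran from 0 to 3 in AC, 3 to 7 in PAC, 3 to 5 in BAC organoids, 3 to 5 in BPAC, 0 to 1 for the *Braf* response and 1 to 3 for the *Braf* level after 4-HT; where this, a single duplicate or counts summed per donor left 1 AC culture or sum per treatment, it was assumed to vary like the other groups, and AC counts under these settings rest on that. The cause of these shifts was not tested, beyond the fewer libraries that several of these settings hold. Apart from the shares given with the results, the share of all genes called under each setting is not given here. These shifts can therefore not be told from shifts over all genes. The replicate block changed no other member's call than those given with the results, and the levels, whose donors differ between genotypes, have no blocked fit.

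*Jag1* in AC turned to -0.034 in duplicate 1 alone and ran from -0.017 to 0.54 with 1 culture left out, and *Hes1* in BAC turned to -0.061 in duplicate 2 alone. The *Braf* difference of *Lfng* turned to 0.32 in duplicate 2 alone and 0.040 without the duplicate 1 cultures of both PAC donors (0.041 with the block), and ran from -0.34 to 0.22 with 1 culture left out. That of *Mfng* ran from -0.38 to 0.063, and that of *Hes6* was -0.00072 in duplicate 1 alone. The *Trp53* difference of *Dll1* turned to -0.039 in duplicate 2 alone. Depth limits the genes with few counts, such as *Mfng*, *Hes5*, *Dll3* and *Aph1c*. A prior count of 0.5 in place of 2 moved no mean change per genotype by more than its spread between cultures.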
